A study of Mus musculus with 12 samples.

Results

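L-arginine is the substrate of the nitric oxide synthases and enters several other pathways. Macrophages exposed to interferon gamma and microbial products make the inducible synthase encoded by Nos2, which turns arginine into nitric oxide and citrulline, and Nos2 is therefore often read as a marker of an inflammatory macrophage state. The supply of arginine in a tumor is known to matter for T cells, which need it to divide. The genes described here are the 4 lines of the count table with the symbols Nos2, Slc7a2, Ass1 and Odc1, out of 23282 lines, in all 12 tumors of the 4 groups. They are members of a set fixed by gene symbol, with no threshold on their values. Slc7a2 encodes a cationic amino acid transporter that brings arginine into macrophages, Ass1 the argininosuccinate synthase that starts the rebuilding of arginine from citrulline, and Odc1 the ornithine decarboxylase that opens the path from ornithine to polyamines.

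The tumors were grown from MC38, a mouse colon carcinoma cell line, under the flank skin of wild-type female C57BL/6 mice given as 6 weeks old, and were taken on day 19. The Con group received the saline vehicle and an IgG2a control antibody, and the SFIH group 50 mg/kg of SFIH each day with the same control antibody. The PD group received 200 μg of anti-PD-1 antibody 2 times a week, and the Comb group both agents, with 3 tumors per group. SFIH is a hexane fraction of the root of Inula helenium that is rich in the sesquiterpene lactones alantolactone and isoalantolactone. All 4 groups share the cell line, strain, sex and sampling day, and the comparisons ask how either agent, or their combination, was reflected in the RNA of whole tumors.

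Between 7870741 and 12261032 reads were counted on genes in each tumor, from libraries that copy the 3′ end of a transcript, so that read number does not scale with gene length. Rn45s, the ribosomal RNA precursor, took 17.1% of the counts in PD replicate 2, 14.1% in Comb replicate 2 and 4.28 to 10.3% in the other tumors. Levels are given as CPM, the count of a gene scaled to a common library size after TMM correction in edgeR. The label "tumor cells" describes RNA from whole tissue, since Ptprc, the pan-leukocyte marker, had 665 to 4133 counts in every tumor, while of 10 markers of colon epithelium Lgals4 had 0 counts in all 12 and Cdx1 and Cdx2 at most 2 and 1, but Cdh1 had 16 to 157 counts and Krt8, Krt18 and Krt19 up to 255, 219 and 237, highest in Comb replicate 3. The 10 summed to 4.69 to 25.2 CPM in the other 11 tumors and to 116 CPM in that one. Comb replicate 3 stood apart from the other tumors, with a summed level of 13 skeletal muscle markers of 9361 CPM against 5.03 to 824 in the other 11 tumors, and of 12 macrophage markers of 15138 CPM against 607 to 4220. Its TMM factor was 0.76, the lowest of the 12, and without TMM the median log2 fold change of all genes in Comb against Con moved by -0.25. Log2 fold changes and list medians that involve Comb are therefore given with and without this tumor, a choice made for the gene lists after the data were seen.

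Ass1 is the gene of the 4 whose reads are hardest to place. The annotation also holds Gm5424, a processed pseudogene of Ass1, that is, a copy of its spliced transcript set into another chromosome. The coding sequence of Ass1 (1236 bases) aligned to Gm5424 without a gap, with 1230 identical bases (99.5%). The last 60 coding bases of Ass1 that lie within a single exon are shown with their counterpart, because a read of 75 bases from this stretch could be told apart only by the few bases that differ. They lie in exon 15 of Ass1 at chr2:31518732-31518791 (plus strand) and in Gm5424 at chr10:62072256-62072315 (plus strand) in GRCm38 with the GENCODE M21 annotation. Capitals mark the 59 bases that are identical, read 5′ to 3′ on the coding strand.
Ass1: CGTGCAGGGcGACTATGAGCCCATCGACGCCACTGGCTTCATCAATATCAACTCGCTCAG
Gm5424: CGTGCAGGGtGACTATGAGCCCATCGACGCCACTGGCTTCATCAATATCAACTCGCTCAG
Gm5424 shares 911 of the 2359 stretches of 50 bases in Ass1 transcripts (38.6%) and 48 of 351 (13.7%) in the last 400 bases, where 3′ libraries are read. Nos2 shared none of its 4358 stretches with a transcript of another gene. For Slc7a2 it was 586 of 9125 (6.42%), and 12 of 351 at the 3′ end (3.42%). Odc1 has many processed copies in the genome, and 911 of its 3750 stretches (24.3%) are shared with 16 other genes or pseudogenes, but 15 of 351 at the 3′ end (4.27%).

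Of the 4 genes, 3 had enough counts to be tested and Ass1 did not. None of them had an adjusted p under 0.05 in any of the 8 comparisons made (edgeR quasi-likelihood test, two-sided, Benjamini-Hochberg adjustment over 13464 genes). The same test called 0% of all 13464 genes in each of them, in which SFIH, PD and Comb were compared with Con, Comb with PD and with SFIH, either agent with its absence, and the agents were tested for interaction. At an unadjusted p under 0.05, the 3 tested genes counted 0 in SFIH against Con (all genes, 2.25%), 0 in PD against Con (3.99%) and 0 for the interaction (2.55%). Slc7a2 alone of the 3 was below it in Comb against Con (25.3% of all genes), Comb against PD (18%), Comb against SFIH (19%), anti-PD-1 against none (18.7%) and SFIH against none (14.5%). The differences below are therefore described by their values, and none of them passed the adjusted test. The labels do not say that the tumors come from separate experiments, so these p-values measure the spread between the tumors at hand.

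Nos2, the inducible nitric oxide synthase, was a low-abundance transcript with a median of 5.53 CPM. The Con tumors had 2.37, 8.22 and 5.26 CPM (27, 82 and 59 counts), the SFIH tumors 12.4, 6.83 and 6.67 CPM, the PD tumors 5.34, 2.58 and 2.50 CPM, and the Comb tumors 5.73, 9.31 and 1.08 CPM. SFIH replicate 1 was the highest tumor and Comb replicate 3, with 9 counts, the lowest. Both SFIH and PD overlapped Con and Comb. The means ran from SFIH (8.64 ± 3.28 CPM, SD, n = 3) through Comb (5.37 ± 4.13) and Con (5.28 ± 2.93) to PD (3.47 ± 1.61), and no neighbours in this order were further apart than their spread. The log2 fold change was 0.71 ± 0.67 (SE) in SFIH against Con and -0.60 ± 0.68 in PD against Con, with adjusted p = 0.9998 for both in edgeR. With 1 tumor left out, the first ran from 0.35 without SFIH replicate 1 to 1.17 without Con replicate 2, and the second from -1.05 without PD replicate 1 to -0.15 without Con replicate 2. In Comb against Con it was 0.03 ± 0.67, and 0.51 without Comb replicate 3. Comb against PD gave 0.63, and 1.10 without Comb replicate 3, and Comb against SFIH -0.68 and -0.21. Across both anti-PD-1 groups the value was -0.64 with an interval from -1.58 to 0.30, and across both SFIH groups 0.67 with an interval from -0.27 to 1.61 (nominal 95% intervals from the SE). The first of these was -0.40 without Comb replicate 3 and -0.97 without Comb replicate 2, and the second 0.91 and 0.34.

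**Figure D1:**
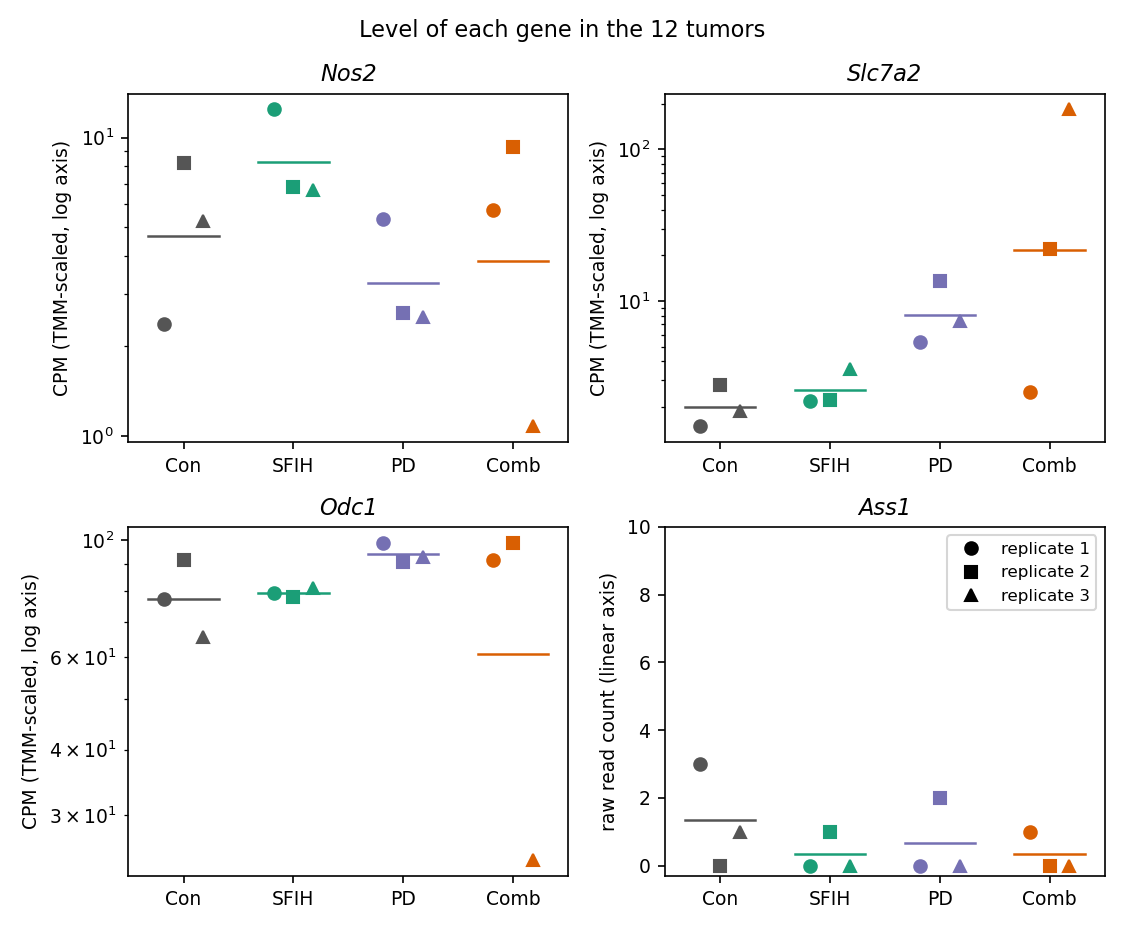
Level of each gene in the 12 tumors by group, in CPM on log axes (raw counts on a linear axis for Ass1), with a symbol per replicate number and a line at the geometric mean (arithmetic mean for Ass1). Slc7a2 was highest in Comb replicate 3, at 183 CPM, the tumor in which Nos2 and Odc1 were lowest, at 1.08 and 24.7 CPM.

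Slc7a2 had the highest log2 fold change of the 3 tested genes in every comparison except SFIH against Con, where that of Nos2 was higher. Without Comb replicate 3, Nos2 also exceeded Slc7a2 in Comb against PD, for SFIH against none and for the interaction. The Con tumors had 17, 28 and 21 counts (1.49, 2.81 and 1.87 CPM) and the SFIH tumors 30, 30 and 34 (2.18, 2.23 and 3.54 CPM). The PD tumors had 50, 99 and 74 counts (5.34, 13.5 and 7.39 CPM) and the Comb tumors 26, 192 and 1529 (2.52, 22.1 and 183 CPM). All 3 PD tumors lay above all 3 Con tumors, with and without TMM, and Comb replicate 1 stayed within the range of Con. Comb replicate 3 alone held 71.8% of all 2130 Slc7a2 counts of the series. Slc7a2 was the only 1 of the 3 tested genes whose groups did not overlap in PD against Con (18.8% of all tested genes did not). In the other comparisons none of the 3 was without overlap, against 17.4% of all genes in SFIH against Con, 24.7% in Comb against Con, 14.3% in Comb against PD and 16.2% in Comb against SFIH. The means were 69.3 ± 99.1 CPM in Comb, 8.73 ± 4.23 in PD, 2.65 ± 0.773 in SFIH and 2.06 ± 0.678 in Con (SD, n = 3).

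Against Con, the log2 fold change of Slc7a2 was 2.08 ± 1.09 (SE) in PD, with adjusted p = 0.9998 in edgeR. In Comb it was 5.07 ± 1.19 (edgeR adjusted p = 0.0665), and 2.57 ± 0.71 without Comb replicate 3 (edgeR adjusted p = 0.112). Comb exceeded PD by 2.99 ± 1.07 (edgeR adjusted p = 0.243), which shrank to 0.49 without that tumor, and SFIH by 4.72 ± 1.16 (edgeR adjusted p = 0.128), which became 2.22. In SFIH against Con the value was 0.36 ± 1.10 (0.11 without SFIH replicate 3 to 0.63 without Con replicate 2), and the interval reached from -1.80 to 2.52 (nominal 95%, from the SE). Over both anti-PD-1 groups the value was 3.40 ± 0.79 (edgeR adjusted p = 0.098), 2.15 without Comb replicate 3 (edgeR adjusted p = 0.0711) and 1.92 without PD replicate 2 as well. Across both SFIH groups it was 1.68 ± 0.76 (edgeR adjusted p = 0.343), and 0.43 without Comb replicate 3. The interaction of the agents was 2.64 ± 1.51 (edgeR adjusted p = 0.894) and 0.14 without Comb replicate 3.

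**Figure D2:**
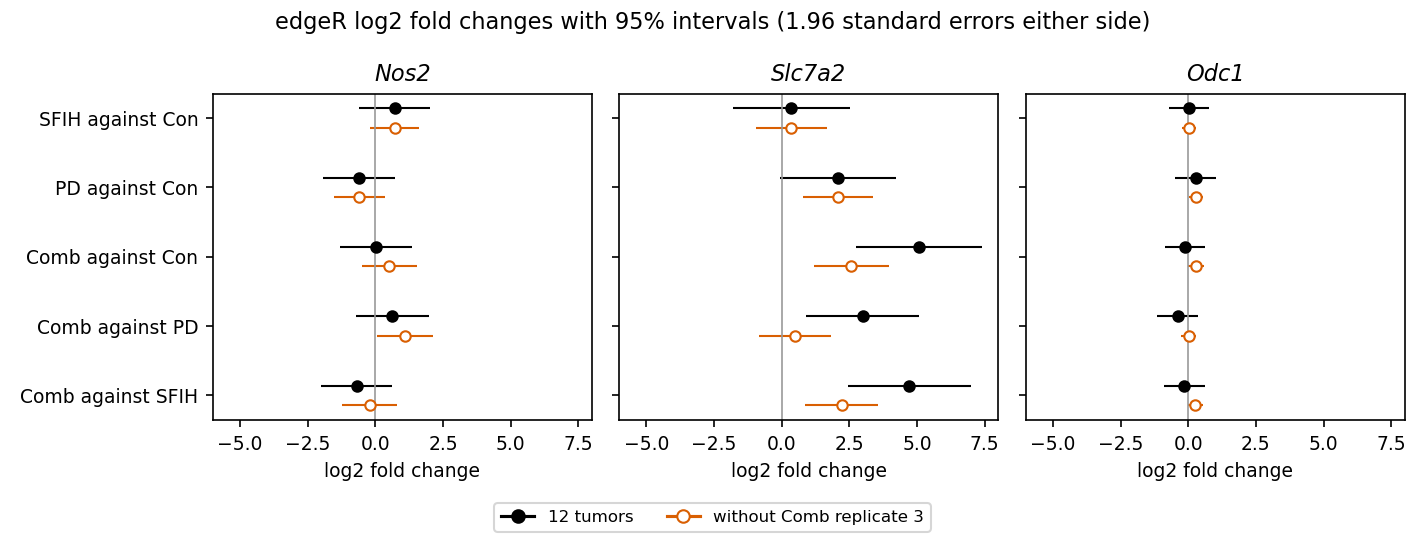
Log2 fold changes of the 3 tested genes in the 5 comparisons of groups, from edgeR, with nominal 95% intervals from the standard errors, for all 12 tumors (filled) and without Comb replicate 3 (open). For Slc7a2 the value moved from 5.07 to 2.57 in Comb against Con when that tumor was left out, and for Odc1 from -0.12 to 0.28.

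Ass1, which rebuilds arginine from citrulline, was at or under 3 counts in all 12 tumors and at 0 in 7 of them. The 12 tumors together gave 8 counts, and 3 counts in a single tumor are 0.218 to 0.408 CPM, so no difference between groups was detectable at these counts. In the same tumors Gm5424, the pseudogene shown above, had 50 to 188 counts, 1460 in all. Its log2 fold change in Comb against Con was 0.93 ± 0.38 (SE; edgeR adjusted p = 0.158), and 1.19 without Comb replicate 3. How many of these reads came from Ass1 was not tested.

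**Figure D3:**
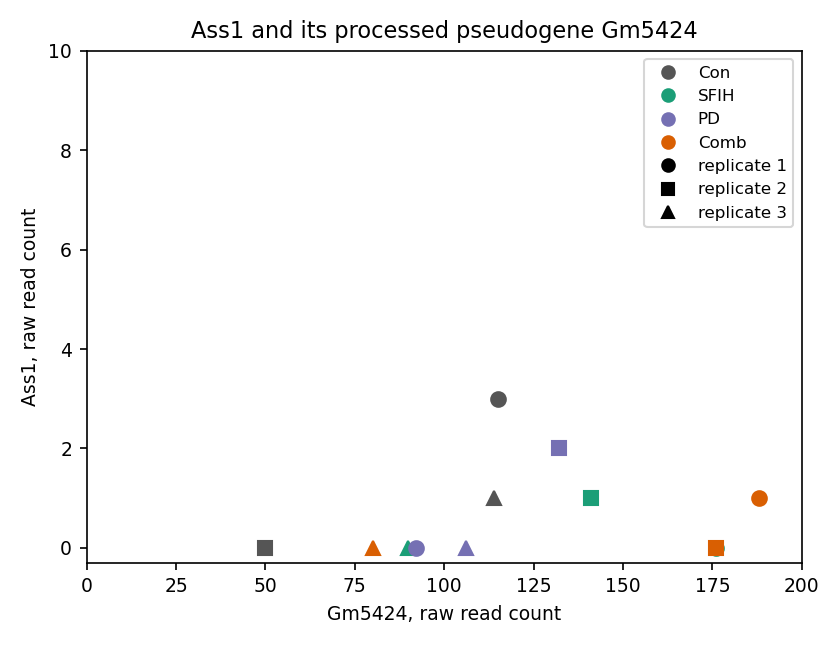
Raw counts of Ass1 against Gm5424 in the 12 tumors, by group (color) and replicate number (symbol), where the point of SFIH replicate 1 lies behind that of Comb replicate 2. Ass1 was at 3 counts or fewer in every tumor, beside 50 to 188 counts of Gm5424.

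Odc1, the first enzyme of polyamine synthesis, was the most abundant of the genes, with a median of 86.1 CPM. The Con tumors had 77.3, 91.8 and 65.4 CPM, the SFIH tumors 79.4, 77.9 and 81.1 CPM, the PD tumors 98.9, 91.1 and 93.0 CPM, and the Comb tumors 91.6, 98.8 and 24.7 CPM. A single tumor, Comb replicate 3, was low, and the other 11 lay between 65.4 and 98.9 CPM. The log2 fold change was 0.02 ± 0.38 (SE) in SFIH against Con, 0.27 ± 0.38 in PD against Con and -0.12 ± 0.38 in Comb against Con (edgeR adjusted p = 0.9998, 0.9998 and 0.845), and the last became 0.28 without Comb replicate 3.

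Across the 12 tumors, no pair among the 4 genes had a correlation of log2(CPM + 1) that passed adjustment over the 6 pairs. Nos2 and Slc7a2 had r = -0.542 (permutation p = 0.0667, adjusted p = 0.164; rho = -0.168, adjusted permutation p = 0.603), which became 0.0332 without SFIH replicate 1 and Comb replicate 3. Nos2 and Odc1 had r = 0.568 (permutation p = 0.0495, adjusted p = 0.164; rho = 0.357, adjusted permutation p = 0.33) and 0.113 without the same tumors. Slc7a2 and Odc1 had r = -0.665 (permutation p = 0.0819, adjusted p = 0.164; rho = 0.392, adjusted permutation p = 0.33), and 0.623 without Comb replicate 2 and Comb replicate 3. All 3 relations rested on Comb replicate 3, since without it alone r was -0.0931 for Nos2 and Slc7a2, -0.00558 for Nos2 and Odc1 and 0.679 for Slc7a2 and Odc1. The labels give no batch by which the tumors could be divided.

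The 5 genes with a pattern most like Nos2, among 10601 with at least 50 counts on average, were Isg20l2 (r = 0.936, and 0.898 without Comb replicate 3), Dnajc22 (0.916 and 0.881), Rabggtb (0.913 and 0.859), Mrpl49 (0.911 and 0.87) and Mkrn2 (0.904 and 0.871), over 12 tumors. Odc1 had 1611 of these candidates ahead of it in likeness to Nos2 and Slc7a2 had 9570.

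The tumors with the highest sums of macrophage markers, Comb replicate 3, Comb replicate 2 and PD replicate 2, also had the highest Slc7a2. Below them the sum did not order Slc7a2. Comb replicate 1 and SFIH replicate 1, at sums of 1201 and 1120 CPM, had 2.52 and 2.18 CPM of Slc7a2. PD replicate 1, at a sum of 1075 CPM, had 5.34 CPM. The sum was 607 to 997 CPM for Con tumors, 997 to 1120 for SFIH tumors, 1075 to 2138 for PD tumors and 1201 to 15138 for Comb tumors, and all 11 tested markers of the list had a positive log2 fold change in Comb against Con, with a median of 2.83 against -0.03 for all genes (11 of 11 at an unadjusted edgeR p under 0.05, beside 25.3% of all genes, and 0 at an adjusted one). Without Comb replicate 3 the median was 1.59. In whole tumors, fewer cells of a type and less RNA per cell cannot be told apart. Taken as a percentage of this sum, Slc7a2 was at 0.496 to 0.63% in PD, 0.21 to 1.21% in Comb, 0.195 to 0.332% in SFIH and 0.165 to 0.463% in Con. For Nos2 the Con tumors gave 0.261 to 1.36%, the SFIH tumors 0.624 to 1.11%, the PD tumors 0.121 to 0.496% and the Comb tumors 0.00712 to 0.477%, with Comb replicate 3 the lowest. The part of macrophage number in the values of Slc7a2 was not tested.

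**Figure D4:**
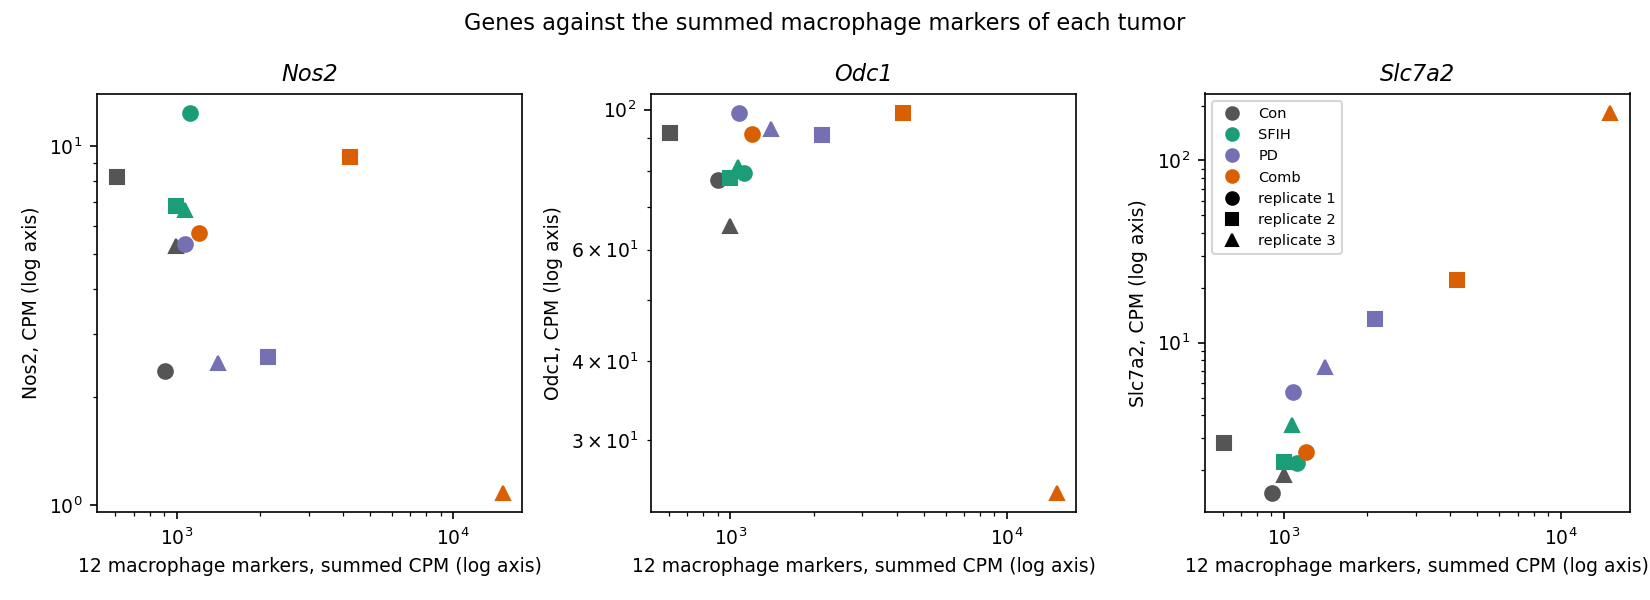
Nos2, Odc1 and Slc7a2 in CPM against the summed CPM of 12 macrophage markers in each tumor, on log axes, by group and replicate number. The tumors with the 3 highest marker sums, Comb replicate 3 (15138 CPM), Comb replicate 2 and PD replicate 2, also had the 3 highest values of Slc7a2, and of the fibroblast, T and NK cell and neutrophil marker sums.

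Comb replicate 3, Comb replicate 2 and PD replicate 2 were also the highest tumors for other marker sums. The 8 fibroblast markers summed to 22742, 11801 and 6836 CPM in these tumors and to 4138 CPM or more in all 3 PD tumors, above the 2163 to 2660 CPM of Con. The 10 T and NK cell markers in the table summed to 346, 138 and 113 CPM in the same 3 tumors, and the 11 neutrophil markers to 962 (905 of it Retnlg), 152 and 146 CPM. Below these tumors the last 2 sums did not follow Slc7a2, since PD replicates 1 and 3 had 46.9 and 50.5 CPM of T and NK cell markers, within the 36.7 to 57.3 CPM of Con, and the lowest neutrophil sums of all 12 tumors (32.1 and 31.3 CPM). The 8 monocyte markers summed to 3029 CPM in Comb replicate 3, but PD replicate 3 came next with 1274 CPM. Comb replicate 3 was also highest for the 8 adipocyte markers (3089 CPM against 102 to 741 in the other tumors) and the 5 liver markers (172 against 0.194 to 14.3). It was highest too for the 13 skeletal muscle markers (9361 against 5.03 to 824) and the 9 skin markers in the table (580 against 8.59 to 54.5). The 5 erythroid markers summed to 2422 CPM in it, against 65.1 to 1531 in the other tumors. The part of these cells in the values of Slc7a2, Nos2 and Odc1 was not tested.

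The rest of arginine metabolism was followed in 6 lists with 67 symbols, of which 66 were in the table and 58 were tested: arginine entry and exit, the urea cycle and citrulline, other nitric oxide synthases and their cofactor, polyamines, ornithine to proline and glutamate, and inducers of Nos2. None of the 58 had an adjusted p under 0.05 in any comparison (edgeR). At an unadjusted p under 0.05, 1 was higher and 1 lower in SFIH against Con, 2 and 1 in PD against Con, and 10 and 2 in Comb against Con. In Comb against PD the counts were 10 and 1, and in Comb against SFIH 12 and 1, to be read beside the shares of all genes given above. Without Comb replicate 3, only 2 genes of arginine entry and exit and 1 of the urea cycle and citrulline remained in Comb against PD (all genes, 9.02%). In Comb against SFIH it was 1 of the nitric oxide synthase list and 4 inducers of Nos2 (10.8%). In Comb against Con it was 1 in each of these 3 other lists and 5 inducers of Nos2 (18.8%). The inducers of Nos2 were positive in 12 of 13 genes in PD against Con, with a median log2 fold change of 0.41 against 0.01 for all genes, and in 7 of 13 in SFIH against Con, with a median of 0.02 against 0.02. Without TMM the first of these was 10 of 13, with a median of 0.30 against -0.08 for all genes. In Comb against Con they were positive in 11 of 13, with a median of 0.48 against -0.03, and again in 11 of 13 with a median of 0.47 without Comb replicate 3. Without TMM they were positive in 9 of 13 there, with a median of 0.24 against -0.29 for all genes. The values without TMM given next are also to be read beside that -0.29. Of the 9 genes of arginine entry and exit, 8 were negative in Comb against Con, with a median of -0.51 (-0.71 without TMM), which shrank to -0.14 without Comb replicate 3. The summed level of these 9 genes was 854, 649 and 220 CPM in the Comb tumors against 835 to 1017 CPM in Con. Of the 16 polyamine genes 11 were negative there, with a median of -0.19 (-0.42 without TMM), but 6 of 16 without Comb replicate 3, with a median of 0.03. All 5 tested genes of the urea cycle and citrulline were positive there, with a median of 0.54, which was 0.26 without TMM and 0.59 without Comb replicate 3.

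Among the genes with the smallest unadjusted p in their comparison, Asl, the lyase that completes the rebuilding of arginine, was at 12.9, 8.8 and 11.3 CPM in Con and 17.3, 19.3 and 16.2 CPM in SFIH. In PD it was at 9.9, 8.3 and 7.1 CPM and in Comb at 14.6, 12.6 and 14.9 CPM. The log2 fold change of Asl was 0.71 ± 0.16 (SE) for SFIH against none (edgeR adjusted p = 0.313), 0.68 ± 0.22 in SFIH against Con and 0.73 ± 0.23 in Comb against PD (edgeR adjusted p = 0.9998 and 0.243). Without Comb replicate 3 the first of these was 0.68 and the last 0.69. Slc7a3, another arginine transporter, had 38, 10 and 23 counts in Con and 0, 0 and 5 in PD (edgeR log2 fold change -3.49 ± 1.05, adjusted p = 0.9998), and 34, 7 and 17 counts in Comb.

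Of the upstream genes, Irf1, an interferon-induced transcription factor needed for Nos2 induction, was at 298, 364 and 387 CPM in Con and 531, 485 and 556 CPM in PD. In SFIH it was at 263, 276 and 279 CPM and in Comb at 346, 542 and 379 CPM, with 2 of 3 Comb tumors within the range of Con. For anti-PD-1 against none the log2 fold change of Irf1 was 0.61 ± 0.14 (SE; edgeR adjusted p = 0.0973), and 0.64 without Comb replicate 3. In Comb against Con it was 0.27, and 0.34 without that tumor. For SFIH against none Irf1 was at -0.33 ± 0.14 (edgeR adjusted p = 0.329), and -0.30 without that tumor. Rela, a subunit of the NF-kappaB factor that also acts on Nos2, was at 88.7, 73.6 and 79.9 CPM in Con and 55.5, 58.3 and 63.7 CPM in SFIH. In PD it was at 67.6, 67.7 and 65.5 CPM and in Comb at 71.6, 49.4 and 41.0 CPM. Each group given an agent thus lay below Con without overlap. Taken pair by pair and in either direction, 17.4% of all genes were without overlap in SFIH against Con, 18.8% in PD and 24.7% in Comb. The log2 fold change of Rela was -0.45 ± 0.20 in SFIH against Con, -0.58 ± 0.20 in Comb against Con and -0.38 ± 0.14 for SFIH against none (edgeR adjusted p = 0.9998, 0.112 and 0.318). The values that involve Comb were -0.41 and -0.30 without Comb replicate 3. In PD against Con the value was -0.27. Ifng, which encodes interferon gamma, had 8, 2 and 14 counts in the Con tumors, 29, 7 and 11 with SFIH, 17, 44 and 19 with anti-PD-1 and 14, 92 and 92 with both, with a value of 2.36 ± 0.63 for anti-PD-1 against none (edgeR adjusted p = 0.098), and 2.17 without Comb replicate 3. Ifngr1, the receptor chain that binds interferon gamma, ranged from 39.0 to 55.8 CPM in Con and reached 61.3, 133 and 301 CPM in Comb (edgeR log2 fold change 1.80 ± 0.46, SE, adjusted p = 0.0671), which became 1.03 without Comb replicate 3. Nos2 itself was at -0.64 ± 0.48 for anti-PD-1 against none, in which Irf1 and Ifng were positive.

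Ddah1, an enzyme that breaks down a natural inhibitor of nitric oxide synthases, was at 5.17, 6.32 and 5.35 CPM in Con and at 10.6, 27.9 and 75.0 CPM in Comb, so that these groups did not overlap, as was the case for 24.7% of all tested genes. Its log2 fold change in Comb against Con was 2.75 ± 0.73 (SE; edgeR adjusted p = 0.0686), and 1.77 without Comb replicate 3. Sat1, the acetyltransferase by which polyamines are broken down, was at 66.4, 91.8 and 61.9 CPM in PD and at 71.1, 146 and 355 CPM in Comb (edgeR log2 fold change 1.38 ± 0.46 in Comb against PD, SE, adjusted p = 0.243), and without Comb replicate 3 the value was 0.57. As with Slc7a2, the highest tumor of both genes was Comb replicate 3.

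Calls among the 4 genes appeared under other tests and without 1 of the tumors, and all of them were of Slc7a2. With DESeq2, Slc7a2 passed an adjusted p of 0.05 in Comb against Con (beside 14.8% of all genes), in Comb against SFIH (8.59%), in Comb against PD (3.1%) and for anti-PD-1 against none (9.28%). With limma-voom and sample quality weights, it passed in Comb against Con (20.2% of all genes), in Comb against SFIH (15%) and for anti-PD-1 against none (20.7%). Without Comb replicate 1, the Comb tumor with the lowest Slc7a2, edgeR called it in Comb against Con (28.5% of all genes), Comb against SFIH (22.5%), Comb against PD (15.2%) and anti-PD-1 against none (17.1%). Without Comb replicate 3, edgeR called 0 of the 3 tested genes, in fits that called 5 of all 13621 genes in Comb against Con, 2 for anti-PD-1 against none and 0 in the other comparisons. Nos2 and Odc1 were not called under any of these.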

How the data were processed

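RNA was sequenced from 12 MC38 tumors, 3 per group, as single-end reads of 75 bases from QuantSeq 3′ libraries. The authors deposited raw read counts per gene symbol for each tumor. The aligner, counting tool, genome build, annotation and strand setting are not given in the sources used here. Columns were assigned to tumors by their names. Genes were kept with filterByExpr, scaled by TMM and tested in edgeR 4.0.16 (R 4.3.3) with the quasi-likelihood test, in 1 fit of all 12 tumors. SE is the size of the log2 fold change divided by the square root of F. The 95% intervals take this SE with a normal quantile, so they are nominal and can be narrower than the quasi-likelihood test implies. DESeq2 1.42.0 and limma 3.58.1 served as alternatives, beside other scalings and filters, a replicate block and fits without each tumor. The steps were tested on simulated data. Sequence sharing was measured on GENCODE M21 (GRCm38) transcripts in stretches of 50 bases. The genes and lists were chosen with earlier results of these data known, and some genes of this metabolism are not reported here. Named list genes are the 4 with the smallest unadjusted p per comparison, or those called, of which some are given. Correlations used 100000 permutations of log2(CPM + 1). Reads carry no molecular identifiers, so count floors cover counting error only.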

Additional observations from a re-analysis of the deposited data

How the results depend on the processing

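No gene of the 4 was called under the other scalings, the other filters on low counts, the fit of the compared groups alone or the fit with a replicate block, nor without both PD replicate 2 and Comb replicate 3, a choice made after the data were seen. DESeq2 called 1 in Comb against Con, 1 in Comb against PD, 1 in Comb against SFIH and 1 for anti-PD-1 against none, and limma-voom 1 in Comb against Con, 1 in Comb against SFIH and 1 for anti-PD-1. With 1 tumor left out at a time, these counts were 0 to 1, and 1 only without Comb replicate 1. In their deviations from the group means, same-numbered tumors of different groups had r from -0.288 to 0.409 (median -0.006). Those with other numbers had r from -0.342 to 0.310 (median 0.038). With a replicate block the log2 fold change of Slc7a2 in Comb against Con was 4.26 (edgeR adjusted p = 0.137).

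Log2 fold changes that turned sign with 1 tumor left out ran for Nos2 from -0.62 to 0.51 in Comb against Con, -0.025 to 1.10 in Comb against PD and -0.74 to 0.39 for the interaction. For Odc1 the range was -0.43 to 0.28 in Comb against Con, -0.70 to 0.01 against PD, -0.45 to 0.26 against SFIH, -0.10 to 0.15 in SFIH against Con, -0.34 to 0.018 for SFIH and -0.091 to 0.27 for anti-PD-1. Its interaction stayed negative, from -0.73 to -0.013.

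Under limma-voom the sign turned for Odc1 in Comb against Con (0.32), Comb against SFIH (0.26) and SFIH against none (0.027), and Nos2 in Comb against SFIH (0.14) and the interaction (0.62). Without TMM it turned for Nos2 in Comb against Con (-0.18) and Odc1 for anti-PD-1 (-0.087), and with the replicate block for Nos2 in Comb against Con (-0.20). Without both tumors it turned for Odc1 in Comb against Con (0.28), PD (0.013) and SFIH (0.27), for SFIH (0.0095) and the interaction (0.0061), and for Nos2 in the interaction (0.27). None of these values was past the threshold, and the cause was not tested. Low counts limit the precision for Ass1, at 3 or fewer per tumor, and Nos2, at 9 to 171. The same holds for Slc7a2, at 17 to 28 counts in Con and 30 to 34 in SFIH.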

Other observations

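Of the other nitric oxide synthases, chosen for mention after their values were seen, Nos1, the neuronal form, had 12 to 307 counts per tumor, and its level was highest in Con replicate 3 (22.8 CPM) and SFIH replicate 1 (22.3 CPM). Its log2 fold change for anti-PD-1 against none was -1.40 ± 0.48 (SE; edgeR adjusted p = 0.156), and -1.23 without Comb replicate 3. Nos3, the endothelial form, had 3 to 44 counts and was highest in Comb replicate 3, with 0.20 ± 0.49 in the same comparison (edgeR adjusted p = 0.856), and -0.17 without Comb replicate 3.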
